A study of Canis lupus familiaris and Dasypus novemcinctus and Ornithorhynchus anatinus with 3 samples.

Results

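WNT ligands, their frizzled receptors and co-receptors, the R-spondins, the secreted WNT inhibitors and the nuclear end of the pathway were described in pregnant endometrium, the lining of the uterus, of dog, armadillo and platypus. Genes were taken by symbol: names starting WNT, FZD or SFRP followed by a number, plus a fixed set of inhibitors, receptors and intracellular genes, listed in at least 2 of the 3 tables of reads per gene. The rule found 54 names, of which 44 were listed in at least 2 tables (20 in all 3 and 24 in 2), out of 12475 genes matched in at least 2 tables. They comprised 14 ligands, 5 genes of the R-spondin arm, 8 frizzleds, 4 co-receptors, 7 secreted inhibitors and 6 intracellular genes. Of these, 41 were listed for dog, 30 for armadillo and 37 for platypus. Messenger RNA was sequenced from 1 library per species: dog (Canis lupus familiaris) and armadillo (Dasypus novemcinctus) are placental mammals, and platypus (Ornithorhynchus anatinus) is an egg-laying mammal. All libraries are labelled as pregnant endometrium, and the labels used here give no stage of pregnancy, age or number of animals. With 1 library each, no difference between species has a replicate check, no p-value was computed, and the intervals cover counting error only.

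WNT proteins are secreted lipid-modified signals that bind frizzled receptors. With the co-receptors LRP5 and LRP6 they stop the breakdown of beta-catenin (CTNNB1), which then acts in the nucleus with TCF and LEF transcription factors, while other WNTs signal through ROR and RYK receptors without beta-catenin. R-spondins bind LGR receptors and raise the amount of frizzled on the cell surface, and SFRP, WIF1 and DKK proteins hold WNT signals back outside the cell. In mouse, WNT signalling is needed to form uterine glands and takes part in the stromal reaction to implantation.

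Levels are given as library-scaled counts (CPM), the reads of a gene relative to the summed gene counts of its library. Those sums were 13625465 for the dog library, 13218476 for armadillo and 2243556 for platypus. CPM is not corrected for gene length, so levels are compared for 1 gene between libraries and not between genes, and such a comparison also contains any difference in gene models. A single read is worth 0.0734 CPM for dog, 0.0757 for armadillo and 0.446 for platypus. The armadillo table lists only genes with reads, so a gene absent from it was not taken as 0. A listed 0 can also be a failed count, since EEF2, TPT1, RPL7A and RPL11 were listed at 0 in dog, and RPS15, RPS25, COPA and RPS7 at 0 in platypus, although every cell uses these genes.

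Markers of tissue composition listed in all tables differed between the libraries. Each summed level below covers only the markers listed for that library. The sums of a list therefore mostly cover different genes and are not compared between libraries. For example, KRT18, listed in armadillo alone, gave 280 CPM of its epithelial sum. Of 6 epithelial markers 2 were listed in dog (summed level 373 CPM), 3 in armadillo (295 CPM) and 3 in platypus (6.69 CPM), and EPCAM, present in all tables, stood at 168 CPM in dog, 7.72 CPM in armadillo and 0.446 CPM (1 read) in platypus. Of 7 stromal markers 2 were listed in dog (626 CPM), 6 in armadillo (21829 CPM) and 6 in platypus (6990.2 CPM), of which COL3A1 stood at 535 CPM in dog, 7623 CPM in armadillo and 294 CPM in platypus, and LUM at 91.4 CPM in dog, 333 CPM in armadillo and 1249.8 CPM in platypus. Of 6 smooth muscle markers 4 were listed in dog (23.7 CPM), 4 in armadillo (25124 CPM) and 5 in platypus (13718 CPM, with MYOCD at 0). Of 6 endothelial markers 2 were listed in dog (41.4 CPM), 4 in armadillo (2496 CPM) and 5 in platypus (20.1 CPM, with VWF, KDR, TEK and ESAM at 0). Of 6 leukocyte markers 4 were listed in dog (13.5 CPM), 5 in armadillo (149 CPM) and 2 in platypus (0.446 CPM, with CD79B at 0). Of 6 trophoblast markers 4 were listed in dog (18.6 CPM), 3 in armadillo (47.1 CPM) and 5 in platypus (0.891 CPM, with GCM1, ELF5, TFAP2C and CDX2 at 0). Of 7 genes of endometrium 5 were listed in dog (48.2 CPM), 4 in armadillo (21.6 CPM) and 5 in platypus (1979 CPM). The progesterone receptor gene PGR was listed in platypus alone, at 291 CPM. Of the other markers listed in all tables, MYH11 had 1.61 CPM (dog), 10803 (armadillo) and 277 (platypus). In the same order ESAM had 10.3, 445 and 0 CPM, and CD79B 0.440, 0.908 and 0. FOXA2 and MSX1 summed to 3.82, 3.71 and 701 CPM, and ELF5 and TFAP2C to 2.20, 46.9 and 0. The part of these differences in the WNT results was not tested. In whole tissue, fewer cells of a type and less RNA per cell cannot be told apart.

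Among genes listed in at least 2 tables, the secreted and receptor genes above 50 CPM overlapped in part between the libraries. Some of them were missing from a table: FZD5, FZD6 and SFRP2 were not listed in armadillo, nor ROR2 and RYK in platypus. In dog the R-spondin gene RSPO2, the inhibitor genes SFRP4 and DKK3 and the receptor genes FZD2, FZD6 and RYK each exceeded 50 CPM. WNT2, RSPO3, SFRP2 and WIF1 had 1 read each there. The genes WNT7B (626 CPM), LRP5 (106 CPM) and SFRP1 (103 CPM), listed in dog alone, also exceeded 50 CPM. In armadillo WNT2, RSPO3, LRP6, ROR2, RYK, SFRP4 and DKK3 each exceeded 50 CPM. In platypus WNT2, LGR4, FZD2, FZD5, SFRP2 and DKK2 each exceeded 50 CPM, and the 2 R-spondin genes RSPO1 and RSPO2 were listed at 0. Of the listed members, 22 of 41 reached 2 CPM in dog, 25 of 30 in armadillo and 23 of 37 in platypus. Of all genes listed, 11241 of 19290 reached it in dog, 10050 of 12335 in armadillo and 8486 of 18481 in platypus.

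**Figure D1:**
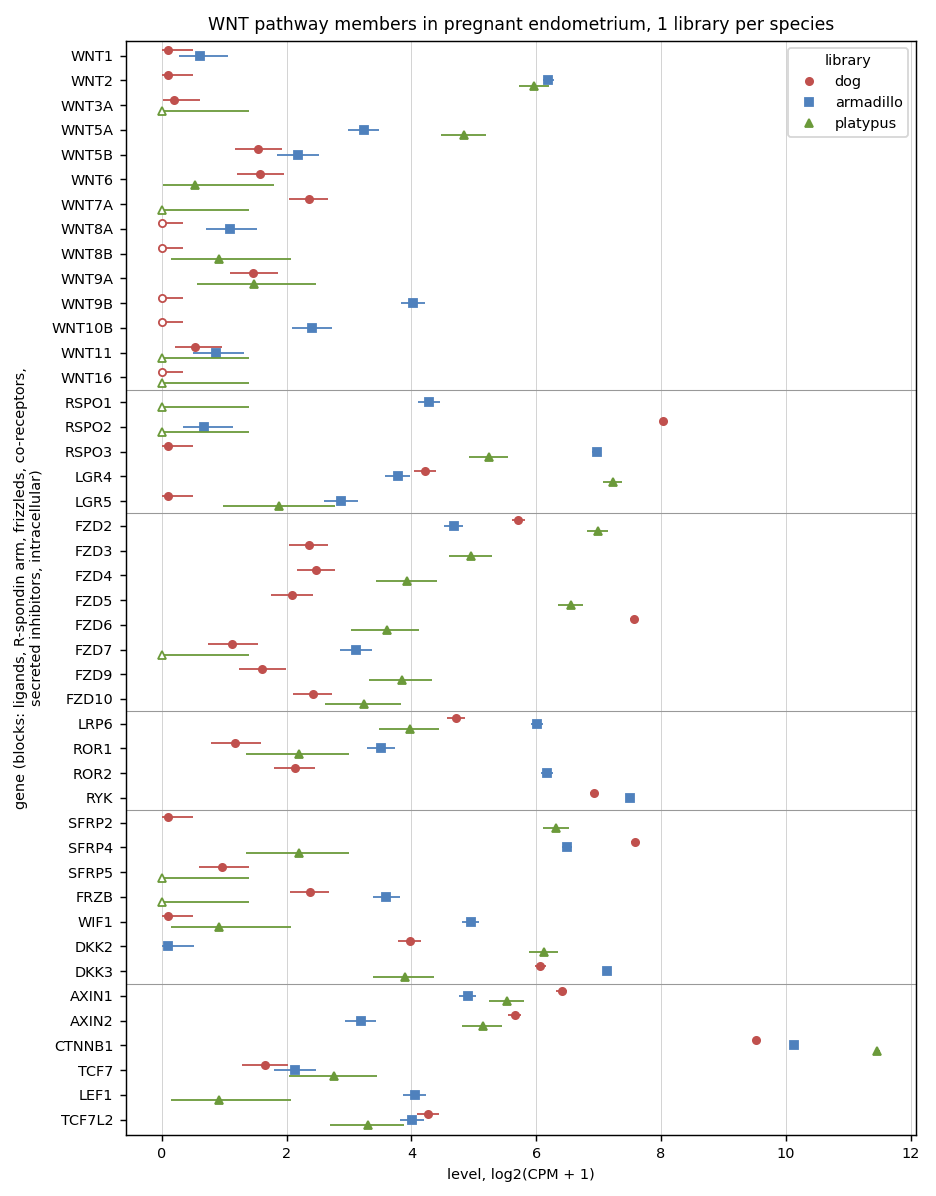
Level of each of the 44 genes as log2(CPM + 1) on the horizontal axis, with genes on the vertical axis in blocks by role; points are single libraries (dog, armadillo, platypus), lines are exact Poisson 95% intervals, open points are genes listed at 0, and a missing point is a gene not listed in that table. RSPO2 in dog and RSPO3 in armadillo and platypus sit far to the right of the same gene where it has few reads, and CTNNB1 is the rightmost gene in every library.

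A gene was counted as different between 2 libraries where the ratio of (CPM + 1) was at least 4 and the higher library reached 5 CPM. Because the armadillo table lists only genes with reads, a gene without armadillo reads could not enter a pair with armadillo. A gene without dog or platypus reads could, as WNT9B did in dog over armadillo. This can remove calls lower in armadillo only, for members and all genes alike. Higher and lower counts of those pairs are therefore not weighed against each other. In dog over armadillo 27 members were listed in both tables. Of these 3 (11.1%) were higher in dog, against 12.6% of all 8854 matched genes, and 7 (25.9%) were lower in dog, against 13.2% of all matched genes. In dog over platypus 34 members were compared, and 4 (11.8%) were higher in dog, against 32% of all 9028 matched genes. Lower in dog than in platypus were 8 (23.5%), against 9.94% of all. In armadillo over platypus 23 members were compared, of which 8 (34.8%) were higher in armadillo, against 36.1% of all 7297 matched genes, and 3 (13.0%) were lower, against 11% of all. With upper-quartile scaling these counts were 3 higher and 8 lower in dog over armadillo (11.1% and 29.6%, against 10.3% and 14.3% of all genes). They were 3 and 11 in dog over platypus (8.82% and 32.4%, against 24.4% and 16.9%), and 7 and 6 in armadillo over platypus (30.4% and 26.1%, against 30.1% and 17.1%). Among members at 2 CPM or more in both libraries, dog over armadillo had 1 of 13 higher and 1 lower (all genes 13.3% and 9.72%), dog over platypus 3 of 17 higher and 5 lower (all genes 25.9% and 11.1%), and armadillo over platypus 3 of 15 higher and 2 lower (all genes 22.9% and 14.5%). The higher share of members lower in dog than in armadillo was thus not seen among genes at 2 CPM in both libraries. Each library enters 2 of the comparisons, so they are not independent. In all, 24 of the 44 genes passed the limit in at least 1 pair. No such share over all genes is given here, so the count is not read as a trait of the members.

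The median log2 fold of (CPM + 1) over the members was -0.65 in dog over armadillo, beside 0.00 over all matched genes. It was -0.41 in dog over platypus, beside 0.61, and 0.87 in armadillo over platypus, beside 1.06. With genes listed at 0 set to 3 reads, the members' medians were -0.65, -0.82 and 0.70 in the same order of pairs, beside 0.06, 0.34 and 0.79 over all genes. The members' median lay below that of all genes in both dog pairs under each scaling and treatment of zeros run. Medians of the pairs with armadillo also leave out genes without armadillo reads. When genes without dog reads were left out too, the dog over armadillo medians were -0.60 for members and 0.14 for all genes. In armadillo over platypus the order was not stable: with upper-quartile scaling it was 0.62 for members and 0.56 for all genes, and with zeros left out 0.47 for members and 0.41 for all genes.

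**Figure D2:**
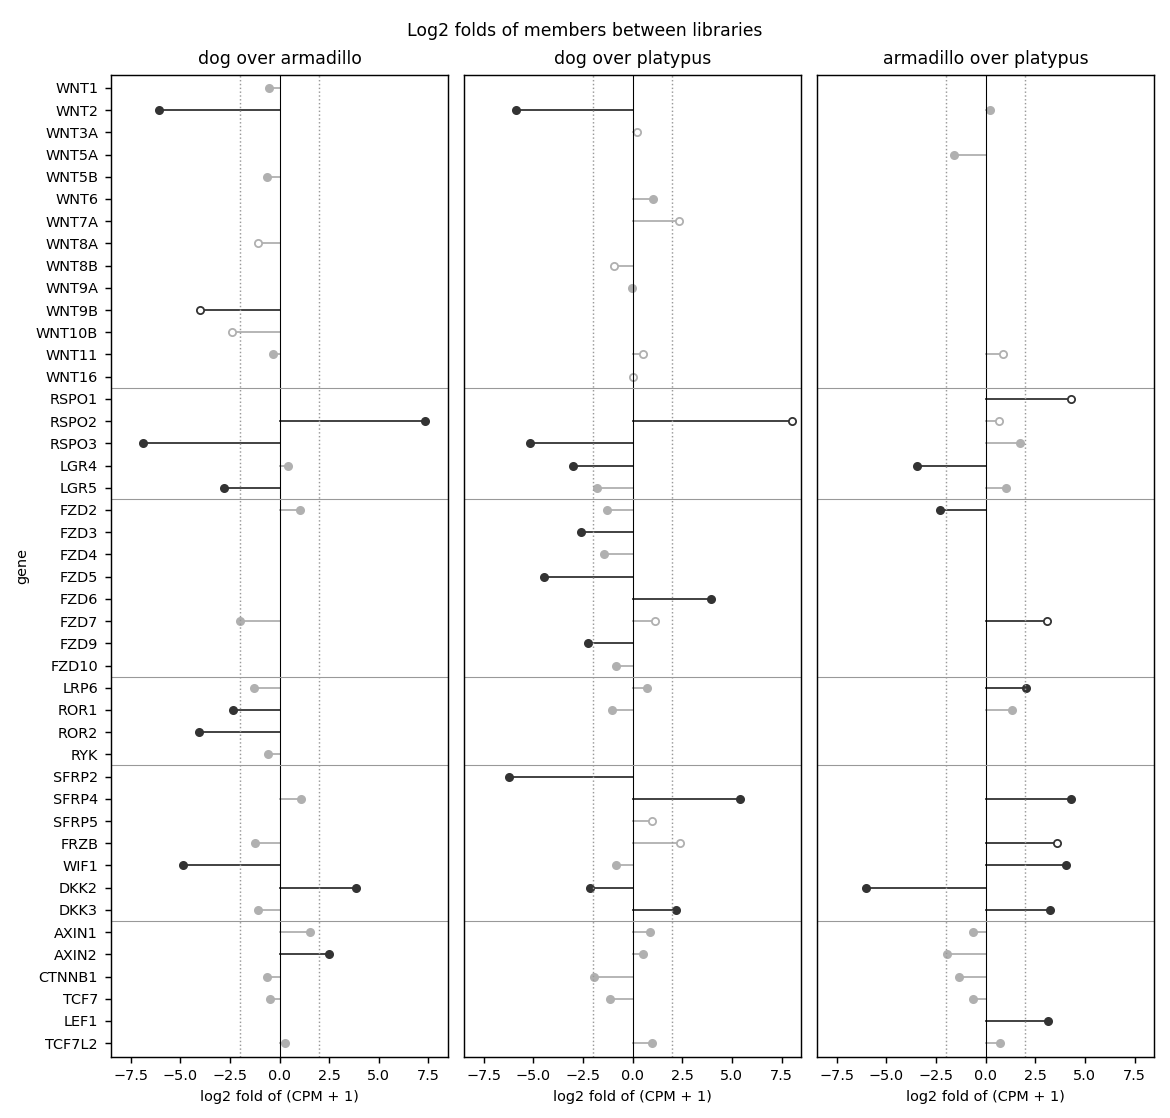
Log2 fold of (CPM + 1) of each gene on the horizontal axis, in 1 panel per pair (dog over armadillo, dog over platypus, armadillo over platypus); dark points passed the 4-fold limit (dotted lines at -2 and 2) with the higher library at 5 CPM or more, grey points did not, and open points have a listed 0 in 1 or both libraries. RSPO2 (7.35 and 8.03) and RSPO3 (-6.87 and -5.15) point in opposite directions in both dog panels.

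**Figure D3:**
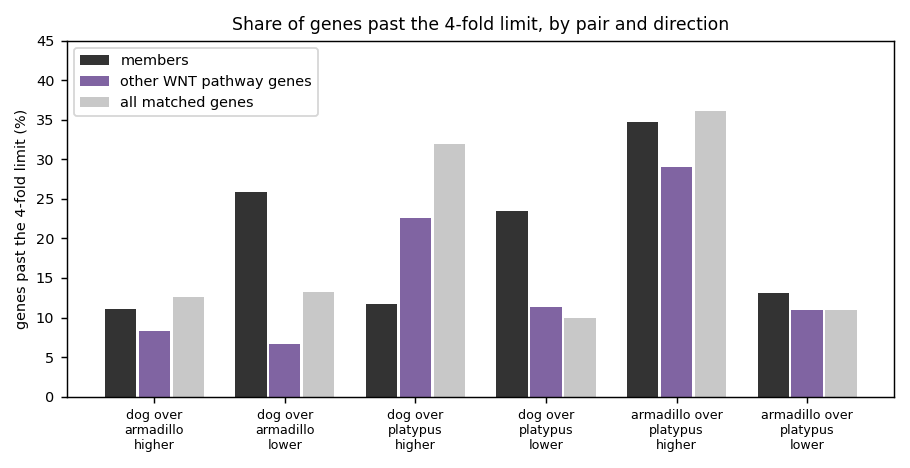
Percent of genes past the 4-fold limit (vertical axis, from 0) in each pair and direction, for the members, the other WNT pathway genes and all matched genes. Members lower in dog stand at 25.9% against armadillo and 23.5% against platypus, above the bars of all genes at 13.2% and 9.94%, whereas in armadillo over platypus the bars of members and of all genes are close. With 2 CPM required in both libraries (not drawn), 1 of 13 members was lower in dog than in armadillo, no longer above the 9.72% of all genes. Against platypus 5 of 17 were lower, beside 11.1% of all genes. Genes without armadillo reads are missing from the pairs with armadillo, which can remove calls lower in armadillo only.

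Most of the 14 ligands had few reads in any library, and among them WNT2 alone passed 50 CPM. WNT2, a ligand of the beta-catenin branch known from lung and placenta development in mouse, had 1 read in dog (0.0734 CPM, 95% interval 0.00186 to 0.409), 955 reads in armadillo (72.2 CPM, 67.7 to 77.0) and 138 in platypus (61.5 CPM, 51.7 to 72.7), where it is listed under the entry name WNT2_ORNAN. WNT2 was therefore near its lowest measurable level in dog and similar in the other libraries. It was 984-fold lower in dog than in armadillo (95% interval 176 to 38922) and 838-fold lower than in platypus (148 to 33340), and the ratio of armadillo over platypus was 1.17 (0.982 to 1.41), a log2 fold of 0.23 that became -0.035 with median-of-ratios and -0.51 with upper-quartile scaling.

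WNT5A, which signals mainly through ROR receptors, was listed in armadillo at 8.40 CPM (111 reads) and in platypus at 27.6 CPM (62 reads), and not in dog. The ratio of armadillo over platypus was 0.304 (95% interval 0.221 to 0.422), short of the 4-fold limit, and past it with upper-quartile scaling. WNT9B, which in mouse directs kidney tubule formation, had 0 reads in dog and 202 reads (15.3 CPM) in armadillo, so that it was at least 69.4-fold lower in dog, with 3 reads taken as the floor of the dog library. WNT10B, a ligand studied in mouse fat and bone, also had 0 reads in dog and 57 reads in armadillo, whose 4.31 CPM lay under the 5 CPM limit.

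The remaining ligands stayed below 5 CPM wherever they were listed. Dog held WNT7A, which patterns the female reproductive tract in mouse, at 4.11 CPM (56 reads). Platypus listed it at 0, with an exact 95% interval up to 1.64 CPM. WNT5B stood at 1.91 CPM in dog and 3.56 in armadillo, and WNT9A at 1.76 CPM in dog and 1.78 (4 reads) in platypus. WNT6 had 27 reads in dog and 1 in platypus, a ratio of 4.45 (95% interval 0.733 to 182) whose interval includes 1. WNT1, WNT3A, WNT8A, WNT8B and WNT11 had between 0 and 15 reads in every table that listed them, and WNT16 was listed at 0 in dog and platypus. Together with the inhibitor gene SFRP5, which had 13 reads in dog and 0 in platypus, 12 members had no library at 5 CPM, and 9 of their 25 listed values were 0.

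Some WNT genes are neighbours in the genome. In the order of protein-coding genes of the dog RefSeq table (assembly UU_Cfam_GSD_1.0, whose build may differ from that of the reads), WNT10B was next to WNT1, WNT9B next to WNT3, WNT3A next to WNT9A and WNT6 next to WNT10A. In dog WNT10B had 0 reads and WNT1 1, WNT9B 0 and WNT3 3, WNT3A 2 and WNT9A 24, and WNT6 27 and WNT10A 17. In armadillo WNT10B had 57 reads and WNT1 7.

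RSPO2 and RSPO3, which encode R-spondins, were far apart between the libraries in opposite directions. RSPO2 had 3556 reads in dog (261 CPM, 95% interval 252 to 269.7), 8 reads in armadillo (0.605 CPM, 0.261 to 1.19) and 0 in platypus. RSPO3 had 1 read in dog (0.0734 CPM), 1643 in armadillo (124 CPM, 118 to 130.5) and 83 in platypus (37.0 CPM, 29.5 to 45.9). The dog reads of this gene pair were thus nearly all from RSPO2, and those of the other libraries nearly all or all from RSPO3. A listed 0 can be a failed count, as for the general cell genes above. Whether the low counts of RSPO2 and RSPO3 are such failures was not tested. RSPO2 was 431-fold higher in dog than in armadillo (95% interval 219 to 999.6) and at least 195-fold higher than in platypus. RSPO3 was 1694-fold lower in dog than in armadillo (304 to 66933) and 504.1-fold lower than in platypus (88.0 to 20147), and its ratio of armadillo over platypus was 3.36 (2.69 to 4.24).

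The share of RSPO2 among the reads of RSPO2 and RSPO3 does not depend on library scaling, though it contains the lengths of the gene models. It was 99.97% in dog (exact 95% interval 99.84 to 99.999), 0.485% in armadillo (0.209 to 0.953) and 0% in platypus (0 of 83 reads, 0 to 4.35). The R-spondin gene RSPO1 had 243 reads (18.4 CPM) in armadillo and 0 in platypus, at least 13.7-fold higher in armadillo, and was not listed in dog. The intervals of the shares are exact counting intervals of single libraries.

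The R-spondin receptor gene LGR4 was highest in platypus. It stood at 17.5 CPM in dog (239 reads, 95% interval 15.4 to 19.9), 12.7 in armadillo (168 reads, 10.9 to 14.8) and 149 in platypus (334 reads, 133 to 166). It was 8.49-fold lower in dog than in platypus (7.17 to 10.1) and 11.7-fold lower in armadillo than in platypus (9.70 to 14.2), while the ratio of dog over armadillo was 1.38 (1.13 to 1.69). LGR5, a related receptor that marks epithelial stem cells in mouse, had 1 read in dog, 84 in armadillo (6.35 CPM) and 6 in platypus (2.67 CPM). LGR5 was 86.6-fold lower in dog than in armadillo (15.1 to 3460.2), and the ratio of armadillo over platypus was 2.38 (1.05 to 6.66).

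Among the frizzleds, platypus was higher than dog for several receptors and lower for FZD6. FZD5 stood at 3.23 CPM in dog (44 reads) and 92.7 CPM in platypus (208 reads), 28.7-fold lower in dog (95% interval 20.7 to 40.7). FZD3, a receptor of axon guidance and tissue polarity in mouse, stood at 4.11 CPM in dog and 29.9 in platypus, 7.27-fold lower in dog (5.02 to 10.6). FZD9 stood at 2.05 CPM in dog and 13.4 in platypus, 6.51-fold lower in dog (3.76 to 11.3). All of these passed the 4-fold limit.

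FZD6, which in mouse acts in hair and skin polarity, went the other way. It had 2566 reads in dog (188 CPM, 95% interval 181 to 196), under the entry name FZD6_CANFA, and 25 reads in platypus (11.1 CPM, 7.21 to 16.4), 16.9-fold higher in dog (11.4 to 26.2). FZD4, a receptor of vessel growth, stood at 4.55 CPM in dog and 14.3 in platypus, and FZD10 at 4.33 in dog and 8.47 in platypus, neither past the limit. With upper-quartile scaling FZD4 also passed it. None of FZD3, FZD4, FZD5, FZD6, FZD9 and FZD10 was listed in armadillo.

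FZD2 and FZD7 were listed in all tables. FZD2 stood at 51.5 CPM in dog (702 reads), 24.7 in armadillo (326 reads) and 125.7 in platypus (282 reads). FZD2 was 5.10-fold lower in armadillo than in platypus (95% interval 4.33 to 5.996), which passed the limit, while the ratio of dog over armadillo was 2.09 (1.83 to 2.39) and of dog over platypus 0.410 (0.356 to 0.472). FZD7 stood at 1.17 CPM in dog (16 reads), 7.64 in armadillo (101 reads) and 0 in platypus. FZD7 was at least 5.71-fold higher in armadillo than in platypus. In dog it was 6.51-fold lower than in armadillo (3.82 to 11.8), and its log2 fold of -1.99 on the (CPM + 1) scale fell just short of the limit, which it passed with a pseudocount of 0.1 CPM or under either other scaling.

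LRP6 and ROR1, the co-receptor genes listed in all tables, were highest in armadillo. ROR2, a receptor tyrosine kinase-like receptor for WNT5A, had 46 reads in dog (3.38 CPM, 95% interval 2.47 to 4.50) and 942 in armadillo (71.3 CPM, 66.8 to 76.0), 21.1-fold lower in dog (15.7 to 29.0). Its relative ROR1 had 17 reads in dog (1.25 CPM), 138 in armadillo (10.4 CPM) and 8 in platypus (3.57 CPM), 8.37-fold lower in dog than in armadillo (5.04 to 14.8). RYK, an atypical receptor that binds WNT5A in mouse, stood at 120.4 CPM in dog and 181 in armadillo, a ratio of 0.666 (0.625 to 0.709). Neither ROR2 nor RYK was listed in platypus.

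LRP6, the co-receptor of the beta-catenin branch, stood at 25.2 CPM in dog (344 reads), 63.8 in armadillo (843 reads) and 14.7 in platypus (33 reads). Armadillo over platypus was 4.34-fold (95% interval 3.06 to 6.34) and passed the limit narrowly, and it no longer did with median-of-ratios or upper-quartile scaling. The ratio of dog over armadillo was 0.396 (0.348 to 0.449), and of dog over platypus 1.72 (1.20 to 2.53), a log2 fold of 0.74 on the (CPM + 1) scale that became 0.18 with median-of-ratios and -0.21 with upper-quartile scaling.

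Calls among the secreted inhibitors went in both directions in each pair. SFRP4, a frizzled-related protein that binds WNTs, had 2590 reads in dog (190.1 CPM, 95% interval 183 to 198), 1176 in armadillo (89.0 CPM, 84.0 to 94.2) and 8 in platypus (3.57 CPM, 1.54 to 7.03). SFRP4 was high in both placental species and low in platypus: it was 53.3-fold higher in dog than in platypus (27.0 to 124) and 25.0-fold higher in armadillo than in platypus (12.6 to 57.9). The ratio of dog over armadillo was 2.14 (1.99 to 2.29). SFRP2, of the same family, had 1 read in dog and 177 reads in platypus (78.9 CPM, 67.7 to 91.4), 1075-fold lower in dog (190 to 42695), and was not listed in armadillo.

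FRZB, the frizzled-related protein first known from cartilage, stood at 4.18 CPM in dog (57 reads), 11.1 in armadillo (147 reads) and 0 in platypus. FRZB was at least 8.32-fold higher in armadillo than in platypus, and at least 3.13-fold higher in dog than in platypus, where dog did not reach the 5 CPM limit. WIF1, which binds WNTs directly, had 1 read in dog, 396 in armadillo (30.0 CPM, 95% interval 27.1 to 33.1) and 2 in platypus (0.891 CPM). WIF1 thus reached 2 CPM in armadillo alone: it was 408-fold lower in dog than in armadillo (72.8 to 16163) and 33.6-fold higher in armadillo than in platypus (9.24 to 278).

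The dickkopf genes DKK2 and DKK3 had opposite orders of level in armadillo and platypus. DKK2, which binds LRP5 and LRP6, had 200 reads in dog (14.7 CPM, 95% interval 12.7 to 16.9), 1 in armadillo (0.0757 CPM) and 154 in platypus (68.6 CPM, 58.2 to 80.4). DKK3, a divergent member of that family, had 900 reads in dog (66.1 CPM, 61.8 to 70.5), 1842 in armadillo (139 CPM, 133 to 146) and 31 in platypus (13.8 CPM, 9.39 to 19.6). DKK2 was lowest in armadillo and highest in platypus, and DKK3 lowest in platypus and highest in armadillo.

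DKK2 was 194-fold higher in dog than in armadillo (95% interval 34.4 to 7701), 4.68-fold lower in dog than in platypus (3.77 to 5.80) and 907-fold lower in armadillo than in platypus (160 to 36067). DKK3 was 10.1-fold higher in armadillo than in platypus (7.08 to 14.9) and 4.78-fold higher in dog than in platypus (3.34 to 7.08), a call that was lost with median-of-ratios and upper-quartile scaling. The share of DKK2 among the reads of both genes, which is free of library scaling, was 18.2% in dog (exact 95% interval 15.9 to 20.6), 0.0543% in armadillo (0.00137 to 0.302) and 83.2% in platypus (77.1 to 88.3).

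Of the intracellular genes, AXIN2 passed the limit in dog over armadillo, none of 5 did in dog over platypus and LEF1 did in armadillo over platypus. CTNNB1, which encodes beta-catenin and also serves cell junctions, stood at 730.2 CPM in dog (9949 reads), 1121 in armadillo (14813 reads) and 2829.9 in platypus (6349 reads). The ratio of dog over platypus was 0.258 (95% interval 0.250002 to 0.266) and that of armadillo over platypus 0.396 (0.384 to 0.408), both short of the 4-fold limit as CPM, and past it with upper-quartile scaling. Dog over platypus also passed it with median-of-ratios scaling.

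AXIN2, a scaffold of beta-catenin breakdown that is itself switched on by the pathway and is widely used as its readout, was the only one of the 5 intracellular genes compared between dog and armadillo to pass the limit. It stood at 49.2 CPM in dog (671 reads, 95% interval 45.6 to 53.1), 8.09 in armadillo (107 reads, 6.63 to 9.78) and 34.3 in platypus (77 reads, 27.1 to 42.9). AXIN2 was 6.08-fold higher in dog than in armadillo (4.95 to 7.53). The ratio of dog over platypus was 1.43 (1.13 to 1.84), but its direction turned with scaling: the log2 fold of (CPM + 1) was 0.51, against -0.067 with median-of-ratios and -0.46 with upper-quartile scaling. It was 4.24-fold lower in armadillo than in platypus (3.12 to 5.74), with a log2 fold of -1.96 on the (CPM + 1) scale that fell just short of the limit, and that passed it with either other scaling or a pseudocount of 0.1 CPM. Its relative AXIN1, the constant scaffold, stood at 83.8 CPM in dog, 28.8 CPM in armadillo and 45.02 CPM in platypus, with a ratio of dog over armadillo of 2.91 (2.59 to 3.27). Other genes of the pathway went both ways in dog over armadillo. APCDD1 was 6.77-fold higher in dog (95% interval 5.85 to 7.88), and NKD1 was 6.54-fold lower (4.20 to 10.6). Activity of the pathway was not tested, and AXIN2 is not read here as a measure of it.

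The TCF and LEF genes encode the DNA-binding partners of beta-catenin. TCF7L2 stood at 18.2 CPM in dog, 15.1 CPM in armadillo and 8.91 CPM (20 reads) in platypus, and the ratio of dog over armadillo was 1.20 (95% interval 0.994 to 1.46), with a log2 fold of 0.25 that became -0.052 with median-of-ratios scaling. TCF7 stood at 2.13 CPM in dog, 3.40 CPM in armadillo and 5.79 CPM (13 reads) in platypus, with a ratio of dog over armadillo of 0.625 (0.378 to 1.02). LEF1, also expressed by lymphocytes, had 206 reads in armadillo (15.6 CPM) and 2 in platypus (0.891 CPM), 17.5-fold higher in armadillo (4.78 to 145). The T cell gene CD3E stood at 14.2 CPM in armadillo, and its part in the LEF1 level was not tested.

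Within dog, genes could be compared with each other, since the authors' deposited table holds a relative abundance proportional to reads per base of the gene model. RSPO2 ranked 157th of the 15084 dog genes with a read, at a relative abundance of 292, followed among members by CTNNB1 (150.3, rank 471) and SFRP4 (112, rank 711). These 3 were the members at or above the 90th percentile. DKK3, FZD6 and RYK lay between the 83.1th and 83.5th percentiles with relative abundances of 38.4 to 39.3. In all 10 of the 36 members with a read lay above the median dog gene, whose relative abundance was 7.76, and no ligand was among them. WNT7A, the highest ligand among the members, had a relative abundance of 2.39, at the 33.7th percentile. The RSPO2 gene model was 552 bases long by these values, the shortest among the 36 members with a read, and by reads alone CTNNB1 stood above it.

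**Figure D4:**
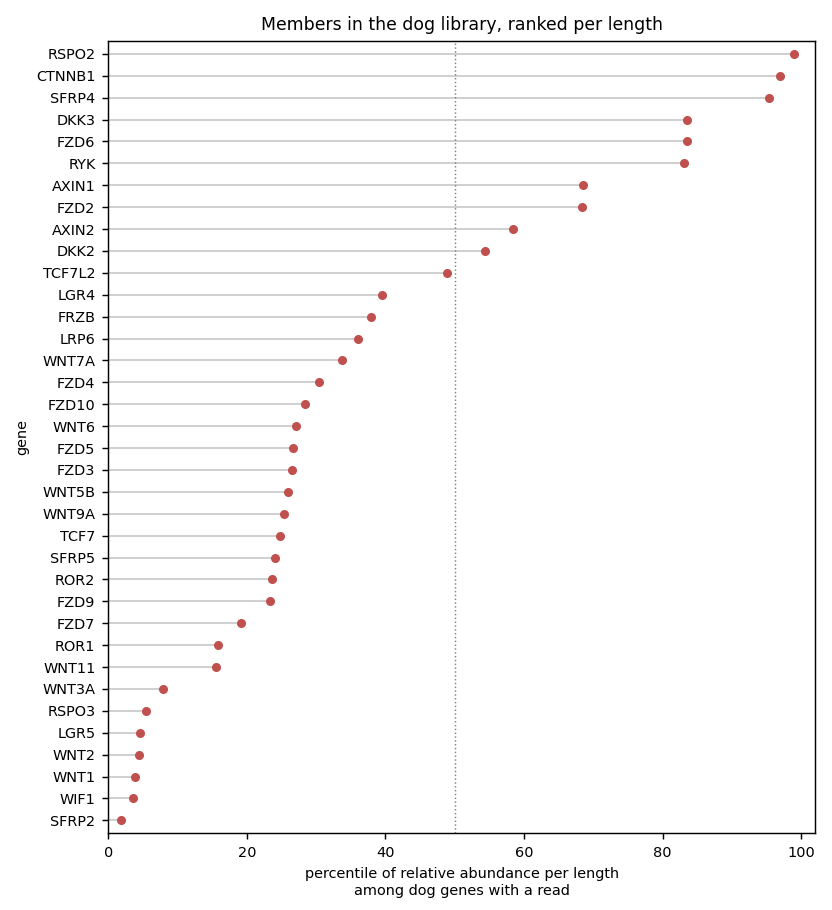
Percentile of the deposited relative abundance per length among the 15084 dog genes with a read (horizontal axis) for the 36 members with a read in dog (vertical axis); the dotted line is the median gene. RSPO2, CTNNB1 and SFRP4 lie above 90, and every ligand among these members lies below the line, with WNT7A highest at 33.7.

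Other genes of the pathway were taken as a list of 89 genes. Of 60 compared in dog over armadillo, 5 were higher in dog (8.33%) and 4 lower (6.67%), beside 12.6% and 13.2% of all matched genes. With upper-quartile scaling 3 were higher (5%) and 8 lower (13.3%), beside 10.3% and 14.3% of all matched genes. DACT1, a regulator of dishevelled, stood at 69.1 CPM in dog and 9.91 in armadillo, 6.98-fold higher in dog (95% interval 5.81 to 8.44), APCDD1, a membrane inhibitor of WNT signalling, was 6.77-fold higher (5.85 to 7.88) and the polarity gene VANGL1 6.001-fold higher (4.77 to 7.63). TLE4, a co-repressor of TCF factors, stood at 6.02 CPM in dog and 76.9 in armadillo, 12.8-fold lower in dog (10.2 to 16.2), DACT2 was 55.1-fold lower (14.9 to 461, with 2 reads in dog) and NFATC1, a calcium-regulated transcription factor, 8.06-fold lower (6.28 to 10.5).

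In dog over platypus 62 genes of this list were compared, with 14 higher in dog (22.6%) and 7 lower (11.3%), beside 32% and 9.94% of all matched genes. SOSTDC1, a secreted inhibitor of WNT and BMP signals, stood at 0.367 CPM (5 reads) in dog and 22.7 in platypus, 61.9-fold lower in dog (95% interval 24.9 to 199), and NLK, a kinase that acts on TCF factors, was 8.998-fold lower (7.46 to 10.9). The casein kinase genes CSNK1D (2719 reads in dog and 1 in platypus, 448-fold, 80.3 to 17690) and CSNK1G2 (171-fold, 47.3 to 1413) were higher in dog. TNKS, which encodes a tankyrase that marks axin for breakdown, was 10.2-fold lower in dog than in platypus (8.99 to 11.5). Its close relative TNKS2 had 2180 reads in dog and 0 in platypus. The sources used here do not say how reads shared by such related genes were counted.

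In armadillo over platypus 55 genes of the list were compared, with 16 higher in armadillo (29.1%) and 6 lower (10.9%), beside 36.1% and 11% of all matched genes. CSNK1G2 was 173-fold higher (95% interval 47.8 to 1428) and TLE4 86.2-fold higher (23.8 to 713), each with 2 reads in platypus, and TNKS2 at least 60.1-fold higher. APCDD1 stood at 15.5 CPM in armadillo and 168 in platypus, 10.8-fold lower in armadillo (9.09 to 12.9), TNKS was 8.10-fold lower (7.21 to 9.09) and NLK 7.72-fold lower (6.44 to 9.26).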

How the data were processed

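Messenger RNA libraries of pregnant endometrium, 1 per species, were grouped by their titles. The submitters' processing notes name Bowtie; the sources used here do not give its version, the genome builds or the annotation. Dog values are the authors' deposited estimated counts (mapped bases divided by 34; 516 values not whole, rounded here) and deposited scores (mapped bases and a relative abundance of unstated unit), per the file headers. That abundance gave whole gene lengths within 0.1 bases for 100% of 5644 genes with over 500 reads, with a constant fitted to make them so. Armadillo and platypus values are deposited raw counts, per the file headers. A closing line that names no gene was dropped from the dog and armadillo tables. All columns used were mapped to a sample.

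Counts were scaled to CPM. Genes were matched by upper-case symbol occurring once per table. The entry names FZD6_CANFA and WNT2_ORNAN were taken as FZD6 and WNT2, since the rule takes names by their start. Log2 folds used a pseudocount of 1 CPM, which understates folds of low genes. Ratios of single genes have no pseudocount and exact 95% intervals conditional on both counts; levels have exact Poisson 95% intervals. For folds given as at least a value, a count of 0 was set to a floor of 3 reads. That floor equals 0.220 CPM for dog, 0.227 for armadillo and 1.34 for platypus. The exact 95% interval of a 0 reaches further, to 0.271 CPM for dog and 1.64 for platypus. These folds are therefore not limits of a 95% interval, and they leave out the counting error of the higher library. Intervals and floors cover counting error only, because reads carry no molecular identifiers and may be copies of the same molecule. The members, lists and limits were chosen with earlier results of these data known. Named with values were members at 5 CPM or more in any library or past the 4-fold limit, and from the pathway list up to 3 genes per direction and pair with the largest log2 fold. NKD1 was named in addition. The shares of gene pairs were chosen after their values were seen. The fold and interval computation was tested on simulated data. Python 3.11.15, numpy 2.4.6, pandas 2.3.3 and scipy 1.17.1 were used. Alternatives were median-of-ratios and upper-quartile scaling, a pseudocount of 0.1 CPM, 2 CPM in both libraries, no minimum, entry and accession names added to symbols, and, chosen after seeing the data, symbols alone.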

Additional observations from a re-analysis of the deposited data

How the results depend on the processing

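No paired analysis was possible because each species has 1 library, and no replicate could be left out. No called direction of a named gene reversed under any alternative run; of the uncalled ratios, AXIN2, AXIN1 and LRP6 (dog over platypus), WNT2 (armadillo over platypus) and TCF7L2 (dog over armadillo) changed sign under at least 1 scaling. Scaling moved the median log2 fold of all matched genes from 0.00, 0.61 and 1.06 (dog over armadillo, dog over platypus, armadillo over platypus) to -0.20, 0.25 and 0.89 with median-of-ratios factors and to -0.14, 0.09 and 0.56 with upper-quartile factors. The members' medians were then -0.94, -0.68 and 0.80, and -0.86, -0.90 and 0.62. With upper-quartile scaling 6 members instead of 3 were lower in armadillo than in platypus, WNT5A, AXIN2 and CTNNB1 being added, while the share of all genes lower was 17.1% instead of 11%, and calls higher in dog than in platypus were 59.1% of all genes called instead of 76.3%. Among the other pathway genes in dog over armadillo, either scaling gave 3 higher instead of 5 and 8 lower (13.3%) instead of 4, beside 15.2% of all genes lower with median-of-ratios and 14.3% with upper-quartile scaling.

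Requiring 2 CPM in both libraries removes genes near 0. It left 13 members with 1 higher (AXIN2) and 1 lower (ROR2) in dog over armadillo (all genes 13.3% and 9.72%). In dog over platypus it left 17 members with 3 higher and 5 lower (all genes 25.9% and 11.1%). In armadillo over platypus it left 15 members with 3 higher and 2 lower (all genes 22.9% and 14.5%). Of the other pathway genes, 5 of 55 were then higher and 2 lower in dog over armadillo, beside the same shares of all genes. In dog over platypus 6 of 41 were higher and 4 lower, and in armadillo over platypus 8 of 45 were higher and 6 lower. Every call of RSPO2, RSPO3, WNT2, WNT9B, LGR5, ROR1, WIF1, SFRP2, RSPO1, FZD7, FRZB and LEF1 was lost, since the lower library was under 2 CPM or had 0 reads. DKK2, with 1 read in armadillo, lost its calls in dog over armadillo and armadillo over platypus, and kept that in dog over platypus. With symbols alone, FZD6 and the platypus value of WNT2 have no value. Of the members listed, 5 were at 0 and 7 at 1 to 3 reads in dog, 0 and 1 in armadillo, and 9 and 4 in platypus.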

Other observations

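Some WNT pathway genes were listed in 1 table and so could not be compared between species. In dog the ligand gene WNT7B, which in mouse acts in lung and placenta development, had 8523 reads (626 CPM, 95% interval 612 to 639), a relative abundance of 261 and rank 181 of 15084 genes with a read. It stood above every ligand among the compared genes in dog on that per-length scale. SFRP1, of the frizzled-related inhibitors, stood at 103 CPM in dog, the co-receptor gene LRP5 at 106 CPM and FZD1 at 24.6 CPM. FZD8, WNT10A and WNT3 had 49, 17 and 3 reads in dog, and DKK4 was listed there at 0. In platypus the transcription factor gene TCF7L1 had 26 reads (11.6 CPM) and WNT2B 2 reads. For armadillo these genes were not analysed here, since its table lists only genes with reads and under these symbols held none of them.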
